A study of Mus musculus with 7 samples.

Results

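Histone messages were followed in proliferating C2C12 cells, a mouse myoblast line, after a short interfering RNA (siRNA) against the long noncoding RNA lnc-31. The members were the rows of the expression table with a name beginning Hist1h to Hist4h, H1f, H2af, H2bf or H3f3, which gave 58 of 13376 rows. Of these, 47 were replication-dependent genes named for the histone clusters, 10 were replacement variants and 1 was a pseudogene (H3f3a-ps2). For the knockdown there were 2 libraries with scrambled siRNA as the control and 2 with lnc-31 siRNA by their labels, all from the same line and all made with a stranded mRNA kit, of a type that selects polyadenylated RNA. A second experiment in the same cells pulled down RNA with biotinylated antisense probes to lnc-31 or, as a background, to lacZ, with 1 library each. Values are FPKM, fragments scaled to transcript length and library size, so levels can be set side by side between genes only approximately. The FPKM of all rows summed to between 1.52e+06 (scrambled siRNA 1) and 2.47e+06 (scrambled siRNA 2) in a library. The number of reads is unknown, and the labels do not tell whether libraries of a group were separate cultures, so every p-value speaks only of the spread between these libraries.

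Histones package DNA into nucleosomes, with H2A, H2B, H3 and H4 forming the core particle and H1 binding the linker between particles. Most are made in S phase from clustered genes without introns, whose messages end in a stem-loop instead of a poly(A) tail, while replacement variants come from single genes with polyadenylated messages and are made throughout the cell cycle. A few cluster genes are also known to give polyadenylated transcripts in differentiated cells, and H2afx is known to give both kinds. In myoblasts, leaving the cell cycle at the start of muscle differentiation ends the S phase supply.

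The row that names Mir31, a microRNA at the lnc-31 locus, stood at 13.4 and 15.6 FPKM in the scrambled siRNA libraries and at 12.1 and 14.1 FPKM in those labelled lnc-31 siRNA. The groups overlapped and the difference was not called (log2 fold change -0.14, SE 0.099, limma adjusted p = 0.38), so this row does not show the knockdown, and every direction below is that of the libraries labelled lnc-31 siRNA. All 6 myoblast markers had rows, with summed levels of 418 to 435 FPKM with scrambled siRNA and 536 to 548 FPKM with lnc-31 siRNA. Of the 6, 5 rose, beside 5.64% of all tested rows. These were Chrna1, Myog, Myod1, Des and Cdh15. Myf5 was lower in both lnc-31 siRNA libraries and was not called (log2 fold change -0.10, limma adjusted p = 0.16). Rows were found for 2 of 4 fibroblast markers (summed 3.32 to 4.17 FPKM) and 1 of 3 blood markers (1.14 to 1.65 FPKM). Of 2 neural markers 1 had a row, Tubb3 (10.4 to 11.2 FPKM), and 0 of 7 adipocyte, endothelial and epithelial markers did.

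Of 59 gene names in these rows, 57 were placed on a single RefSeq gene on GRCm38.p6, and 51 had a promoter window of 300 bases, 250 before and 50 after a start site. In 7 of the 52 windows of members that site is not the outer end of the RefSeq gene, and for H2afv it lies 68 bases inside. The 6 windows below belong to the called members that have one and to the relatives H2afv and Hist1h1e. H2afv was tested and not called, whereas Hist1h1e averaged under 1 FPKM and was not tested. Hist1h2bc was without a window. H2afz and H2afv encode the closely related H2A.Z proteins, and Hist1h1c and Hist1h1e encode linker histones of the same cluster. The windows are chr3:137864237-137864536 (plus strand) for H2afz, chr11:6444394-6444693 (minus) for H2afv, chr13:23738557-23738856 (plus) for Hist1h1c and chr13:23622509-23622808 (minus) for Hist1h1e. Those for Hist2h2aa2 and Hist2h3c1 are chr3:96240325-96240624 (minus) and chr3:96246435-96246734 (plus). Capitals mark CCAAT or its reverse complement, TATA starting 45 to 20 bases before the start, and AAACACA, a sequence known as the H1 box.
H2afz: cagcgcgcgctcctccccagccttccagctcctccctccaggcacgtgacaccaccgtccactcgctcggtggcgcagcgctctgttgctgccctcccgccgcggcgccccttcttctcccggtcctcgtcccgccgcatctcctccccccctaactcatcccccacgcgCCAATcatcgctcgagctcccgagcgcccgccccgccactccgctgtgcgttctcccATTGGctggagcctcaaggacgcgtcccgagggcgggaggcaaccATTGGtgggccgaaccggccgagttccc
H2afv: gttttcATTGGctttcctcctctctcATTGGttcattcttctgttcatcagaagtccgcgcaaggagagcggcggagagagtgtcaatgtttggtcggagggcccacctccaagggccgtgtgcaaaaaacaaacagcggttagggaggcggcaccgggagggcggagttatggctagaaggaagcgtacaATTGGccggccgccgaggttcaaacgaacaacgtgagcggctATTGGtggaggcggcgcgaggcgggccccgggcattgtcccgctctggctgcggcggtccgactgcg
Hist1h1c: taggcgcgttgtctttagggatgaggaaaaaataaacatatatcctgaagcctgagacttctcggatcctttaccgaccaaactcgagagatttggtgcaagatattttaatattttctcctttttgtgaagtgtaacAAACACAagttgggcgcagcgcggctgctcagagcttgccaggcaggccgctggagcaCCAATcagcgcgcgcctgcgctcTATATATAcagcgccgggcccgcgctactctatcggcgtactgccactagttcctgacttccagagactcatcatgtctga
Hist1h1e: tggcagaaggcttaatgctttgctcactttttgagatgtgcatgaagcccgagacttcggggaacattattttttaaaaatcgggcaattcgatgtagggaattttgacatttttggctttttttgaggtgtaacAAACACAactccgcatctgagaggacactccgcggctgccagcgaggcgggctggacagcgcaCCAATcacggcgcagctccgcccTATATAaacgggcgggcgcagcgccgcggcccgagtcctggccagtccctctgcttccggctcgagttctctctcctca
Hist2h2aa2: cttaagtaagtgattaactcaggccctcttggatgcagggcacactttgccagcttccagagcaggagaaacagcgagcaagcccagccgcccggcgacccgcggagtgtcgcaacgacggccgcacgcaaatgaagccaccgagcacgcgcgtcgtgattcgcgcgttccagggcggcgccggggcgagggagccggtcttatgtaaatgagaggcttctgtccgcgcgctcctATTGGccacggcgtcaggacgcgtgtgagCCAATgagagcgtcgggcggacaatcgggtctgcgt
Hist2h3c1: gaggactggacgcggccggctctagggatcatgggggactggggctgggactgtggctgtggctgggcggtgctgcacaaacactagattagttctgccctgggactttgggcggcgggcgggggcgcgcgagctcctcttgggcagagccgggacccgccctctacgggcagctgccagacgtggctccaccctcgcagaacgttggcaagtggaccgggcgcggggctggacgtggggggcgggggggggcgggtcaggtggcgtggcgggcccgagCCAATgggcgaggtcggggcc

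The linker histone windows had the same order of motifs, with AAACACA at position -112 from the start in Hist1h1c and -115 in Hist1h1e, and CCAAT at -54 and -52. Over the 5 cluster H1 windows, all 5 held CCAAT and TATA and 4 held AAACACA, against 37.4%, 6.62% and 7.18% of all 32851 windows. The octamer ATTTGCAT, a known element of H2B promoters, was in 6 of 13 cluster H2B windows and 4 of 7 cluster H2A windows, against 1.74% of all windows. CCAAT was also in all 7 cluster H2A, all 13 cluster H2B and all 8 cluster H3 windows, and in 3 of 10 cluster H4 windows. TATA was in 44.2% of the 43 cluster windows. H2afz had 3 copies of CCAAT and H2afv had 4, and neither window held TATA. The Hist2h2aa2 window held CCAAT at -15 and 15, and that of Hist2h3c1 at 30. TATA was searched on the strand of the gene and the other motifs on both strands, and no searched motif contains another. A match says only that the letters are there.

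Replacement variants supplied nearly all histone message in these libraries, whose kit retains polyadenylated RNA. They made up 96.2 ± 0.522% of the summed FPKM of histone rows with scrambled siRNA and 94.9 ± 0.00781% with lnc-31 siRNA (SD, n = 2 each), and the cluster rows 3.81 ± 0.517% and 5.06 ± 0.00203%. All 10 replacement variants had means above 10 FPKM, from 10.9 (H2afy2) to 684 (H3f3b), whereas 3 of the 47 cluster rows did. Those 3, Hist1h1c, Hist1h2bc and Hist1h4i, carried 53.9 ± 6.25% of cluster FPKM with scrambled siRNA and 60.2 ± 0.0672% with lnc-31 siRNA. Of the other cluster rows, 28 had a mean under 1 FPKM and 16 lay between 1 and 5.

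**Figure D1:**
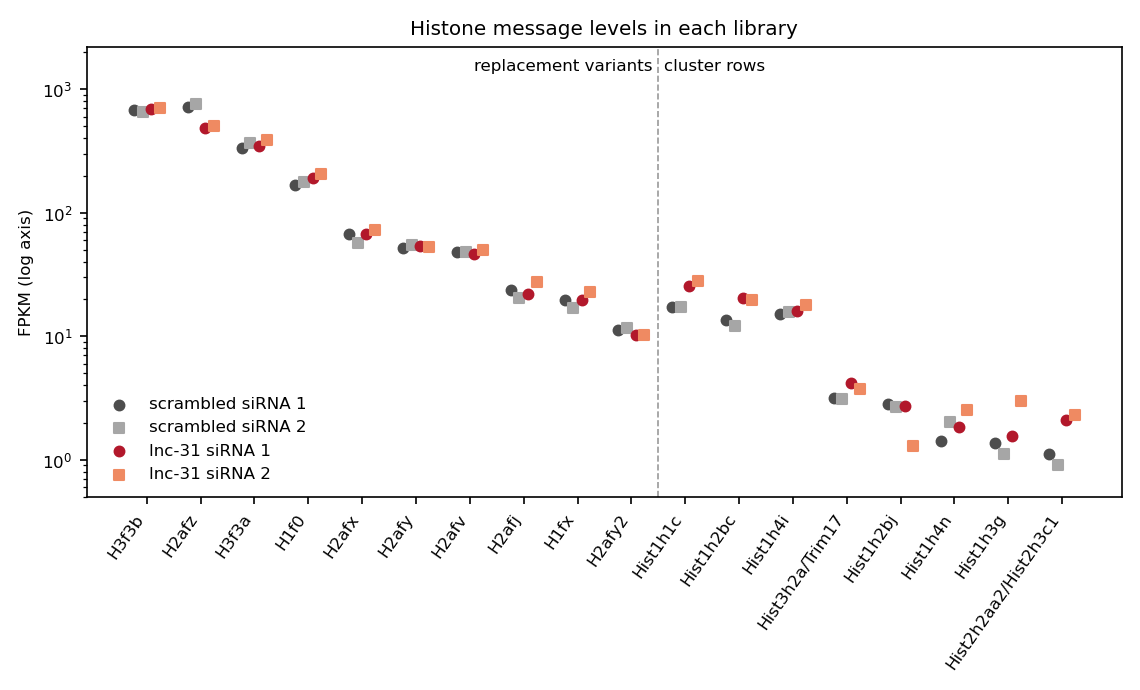
FPKM (log axis) of the 10 replacement variants and the 8 cluster rows with the highest means, each point 1 library. Replacement variants span 10.9 to 684 FPKM and 3 cluster rows stand above 10 FPKM. H2afz is lower, and Hist1h1c and Hist1h2bc are higher, in both lnc-31 siRNA libraries.

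One abundant variant fell and 3 cluster rows rose. H2afz was the member that fell, and Hist1h1c, Hist1h2bc and the merged row Hist2h2aa2,Hist2h3c1 were the members that rose. Of 58 members, 29 averaged at least 1 FPKM and were tested by limma on log2(FPKM + 1), a scale that understates the change of low genes. The 4 called members were 13.8% of those tested, beside 12.4% of all 11500 tested rows (5.64% called higher and 6.78% called lower), so the share called is near the background. The groups did not overlap in 10 members that were higher and 3 that were lower, 44.8% of those tested, beside 60.2% of all tested rows (28.5% higher and 31.7% lower). With any 1 library left out, log2 fold changes were -0.62 to -0.54 for H2afz and 0.60 to 0.74 for the merged row. They were 0.53 to 0.66 for Hist1h1c and 0.55 to 0.70 for Hist1h2bc. A group then holds a single library, so counts of called members in those fits are not compared with the background.

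**Figure D2:**
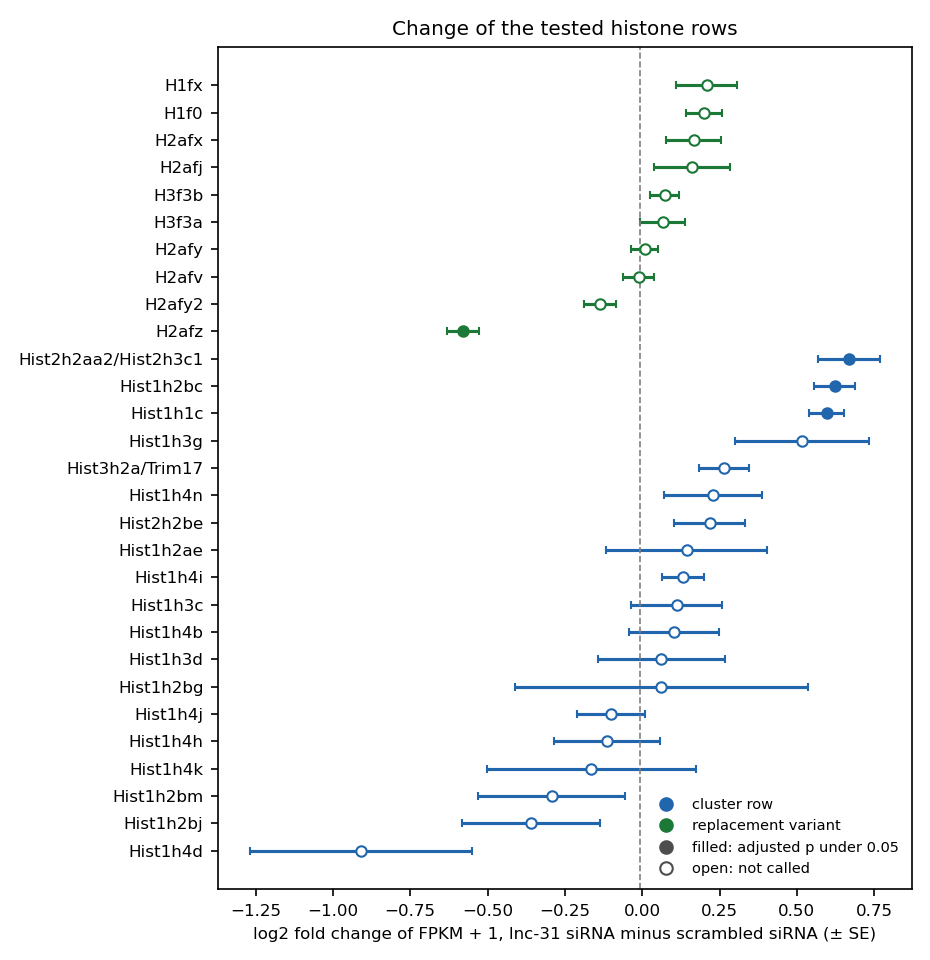
Log2 fold change of FPKM + 1 (lnc-31 siRNA minus scrambled siRNA) with its standard error for the 29 tested histone rows, by class, with filled points for an adjusted p under 0.05. The dashed line is the median of all tested rows (-0.01). H2afz lies at -0.58 and the 3 called cluster rows lie between 0.60 and 0.67.

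H2afz (chr3:137864487-137866922, plus strand) encodes H2A.Z.1, a variant found in nucleosomes next to gene starts. It stood at 725 and 755 FPKM in scrambled siRNA 1 and 2 and at 482 and 507 FPKM in lnc-31 siRNA 1 and 2. Both lnc-31 siRNA libraries lay below both scrambled siRNA libraries, and the log2 fold change was -0.58 (SE 0.052, limma adjusted p = 0.0057). Of the 11500 tested rows, 85 had a lower log2 fold change than H2afz, and among the 301 tested rows that averaged at least 300 FPKM it was the 11th lowest. The call held with each library left out (adjusted p = 0.023 to 0.047).

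The other H2A variants did not pass the test. H2afv, which encodes H2A.Z.2, had 47.9 and 48.5 FPKM in the scrambled siRNA libraries and 45.9 and 49.7 FPKM with lnc-31 siRNA (log2 fold change -0.01, adjusted p = 0.90). The ratio of H2afz to H2afv was 15.1 and 15.6 with scrambled siRNA and 10.5 and 10.2 with lnc-31 siRNA (exact permutation test, two-sided p = 0.333, the smallest that 2 against 2 libraries can give). H2afx, whose protein is phosphorylated at DNA breaks, had 67.8 and 57.2 FPKM in the scrambled siRNA libraries and 67.2 and 72.8 FPKM with lnc-31 siRNA, with overlap (adjusted p = 0.27). H2afj had 23.5 and 20.4 against 21.8 and 27.8 FPKM, also with overlap (adjusted p = 0.43). The macroH2A genes H2afy and H2afy2, whose proteins carry a large extra domain, had log2 fold changes of 0.01 and -0.14. H2afy overlapped between groups. H2afy2 had 11.3 and 11.6 FPKM with scrambled siRNA and 10.3 and 10.3 FPKM with lnc-31 siRNA. It was thus lower without overlap, as were 31.7% of all tested rows, and was not called (limma adjusted p = 0.14). H2afz made up 78.4 ± 1.17% of the H2A family's FPKM with scrambled siRNA and 69.6 ± 0.414% with lnc-31 siRNA, while the rest of that family summed to 204 ± 8.12 and 216 ± 11.8 FPKM.

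**Figure D3:**
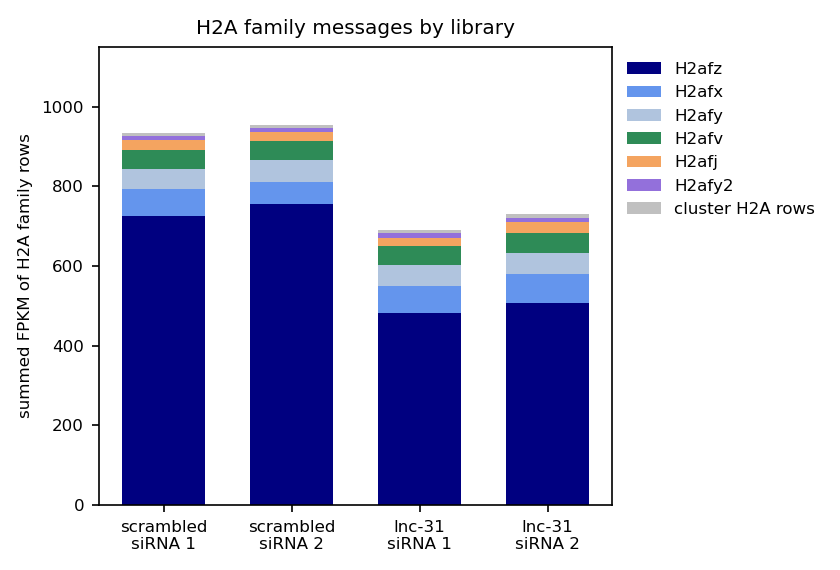
Summed FPKM of H2A family rows in each library, stacked by gene, with single-gene cluster H2A rows and Hist3h2a,Trim17 as 1 part. The H2afz part goes from 725 and 755 FPKM to 482 and 507 FPKM, and the other parts sum to 199 to 224 FPKM in the 4 libraries.

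The H3.3 genes H3f3a and H3f3b encode the replacement H3, laid down outside replication. H3f3b had 676 and 658 FPKM in the scrambled siRNA libraries and 698 and 704 FPKM with lnc-31 siRNA (log2 fold change 0.07, adjusted p = 0.35), and H3f3a had 334 and 370 FPKM against 350 and 387 FPKM (0.07, adjusted p = 0.59). Neither was called. With scrambled and lnc-31 siRNA they made up 99.4 ± 0.189% and 99.2 ± 0.245% of the FPKM of single-family H3 rows among the members. That sum leaves out the merged row Hist2h2aa2,Hist2h3c1 and Cenpa, an H3 variant gene outside the members. Cenpa averaged 97.3 FPKM with scrambled siRNA and 97.2 FPKM with lnc-31 siRNA. H1f0, the linker histone of resting and differentiated cells, had 168 and 179 FPKM in the scrambled siRNA libraries and 191 and 207 FPKM with lnc-31 siRNA. Its groups did not overlap but the difference was not called (log2 fold change 0.20, SE 0.058, adjusted p = 0.081). Only 3 of 12 alternatives called H1f0 higher, among them median of ratios scaling and quantile normalization (adjusted p = 0.028 and 0.021). H1fx, another replacement linker histone, stood 0.21 higher on the log2 scale, which did not pass the test (adjusted p = 0.22).

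Among cluster genes, Hist1h1c (chr13:23738807-23739531, plus strand) encodes the linker histone H1.2. It had 17.31 and 17.33 FPKM in the scrambled siRNA libraries and 25.5 and 27.9 FPKM with lnc-31 siRNA, with no overlap (log2 fold change 0.60, SE 0.056, adjusted p = 0.0070). Its share of H1 family FPKM was 8.19 ± 0.176% and 10.7 ± 0.00873%. The other 4 cluster H1 genes, Hist1h1a, Hist1h1b, Hist1h1d and Hist1h1e, had means under 1 FPKM and were not tested. Hist1h1e, with the like promoter window, was at 0.311 to 1.15 FPKM.

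Hist1h2bc, an H2B gene, had 13.4 and 12.01 FPKM in the scrambled siRNA libraries and 20.5 and 19.7 FPKM with lnc-31 siRNA. Again both lnc-31 siRNA libraries were higher (log2 fold change 0.62, SE 0.066, adjusted p = 0.0085). Its RefSeq gene spans 8282 bases of chromosome 13 (23684199 to 23692480), against a median of 498 bases over the 46 cluster genes that were placed, and 4 of these spans exceed 1000 bases. The other 3 long spans, in Hist1h2be, Hist1h2bp and Hist2h2be, went with means of 0.692 to 1.37 FPKM. Hist1h2ac, an H2A gene 239 bases away, was listed at 0 in scrambled siRNA 2 and at 0.354 to 0.518 FPKM in the other libraries. The calls of Hist1h1c and Hist1h2bc held with each library left out (adjusted p = 0.018 to 0.045 and 0.030 to 0.040).

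The row Hist2h2aa2,Hist2h3c1 merges an H2A and an H3 gene of the chromosome 3 cluster, so their reads cannot be told apart. It had 1.11 and 0.912 FPKM in the scrambled siRNA libraries and 2.10 and 2.29 FPKM with lnc-31 siRNA (log2 fold change 0.67, SE 0.10, adjusted p = 0.018). The call was lost with any 1 library left out: the adjusted p was 0.054 and 0.071 when the first or the second scrambled library was dropped, and 0.055 and 0.075 for the corresponding lnc-31 siRNA libraries. The fold change depended on the pseudocount, reaching 0.84 with 0.5 and 1.05 with 0.1. Hist3h2a,Trim17, which merges a histone gene with an unrelated ubiquitin ligase gene, had 3.18 and 3.11 FPKM in the scrambled siRNA libraries and 4.22 and 3.75 FPKM with lnc-31 siRNA. Its groups did not overlap, and the log2 fold change of 0.26 was not called (adjusted p = 0.091).

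Of 7 tested H4 rows none was called, and their median log2 fold change was -0.10. Hist1h4i, the H4 row with the highest level, had 15.1 and 15.8 FPKM in the scrambled siRNA libraries and 16.1 and 18.0 FPKM with lnc-31 siRNA (log2 fold change 0.13, adjusted p = 0.25). Hist1h4d, at 2.20 and 1.30 FPKM with scrambled siRNA, was at 1.08 in lnc-31 siRNA 1 and is listed at 0 in lnc-31 siRNA 2 (adjusted p = 0.16). Its mean was 1.75 FPKM with scrambled siRNA and 0.540 FPKM with lnc-31 siRNA. It therefore met the filter of 1 FPKM only through the scrambled siRNA libraries. Of 3 tested single-gene H3 rows none was called, and Hist1h3g had the largest value (log2 fold change 0.52, adjusted p = 0.18). Among the 4 other tested H2B rows, values ran from -0.36 (Hist1h2bj) to 0.22 (Hist2h2be). Without lnc-31 siRNA 1, the group is lnc-31 siRNA 2 alone, the library that lists Hist1h4d at 0. Calls of these low rows in that fit are given no weight here. Cluster genes of a family are nearly identical in sequence, so how reads were split between these low rows is uncertain.

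The 28 cluster rows left untested had means from 0.234 FPKM (Hist1h4c) to 0.964 FPKM (Hist1h2al). Hist1h4c and Hist1h2ak are listed at 0 in lnc-31 siRNA 1, Hist1h4f is in lnc-31 siRNA 2, and Hist1h2ac is in scrambled siRNA 2. The pseudogene H3f3a-ps2 was listed at 0 in scrambled siRNA 2 and reached 0.497 FPKM in lnc-31 siRNA 2. By RefSeq 39 of the member names lie on chromosome 13, which holds the main histone cluster, and 7 on chromosome 3. These counts are of chromosomes and include the replacement variants H2afy on chromosome 13 and H2afz on chromosome 3.

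Over the 19 tested cluster rows 3 rose, none fell and 16 did not pass, with a median log2 fold change of 0.11. Over the 10 replacement variants none rose, 1 fell and 9 did not pass, with a median of 0.07, beside -0.01 for all tested rows. The share called was 15.8% of cluster rows and 10% of replacement variants. Of all tested rows 12.4% were called (5.64% higher and 6.78% lower), so the share called in each class is near the background. Without the filter on low values the medians were 0.09 over all 47 cluster rows and 0.07 over the replacement variants. In that setting 1 more cluster row was called higher, Hist1h2bh (limma adjusted p = 0.028). Its mean was 0.425 FPKM with scrambled siRNA and 1.33 FPKM with lnc-31 siRNA. The difference between the classes was not tested. The summed FPKM of cluster rows was 92.6 and 77.5 with scrambled siRNA and 103.4 and 108.9 with lnc-31 siRNA, and that of all histone rows 2217 and 2248 against 2044 and 2151.

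The low cluster rows also differed between libraries of the same group. Of 43 cluster rows with a mean under 3 FPKM, 33 (76.7%) were higher in scrambled siRNA 1 than in scrambled siRNA 2, and their sums were 43.6 and 29.2 FPKM. Over all 3410 rows of the table under that mean, 43.4% were higher in scrambled siRNA 1. Hist1h2bg had the widest gap, 2.04 against 0.122 FPKM. The lnc-31 siRNA libraries, at 37.04 and 39.6 FPKM, lay between the scrambled siRNA libraries, so the sum of low cluster rows did not separate the groups.

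**Figure D4:**
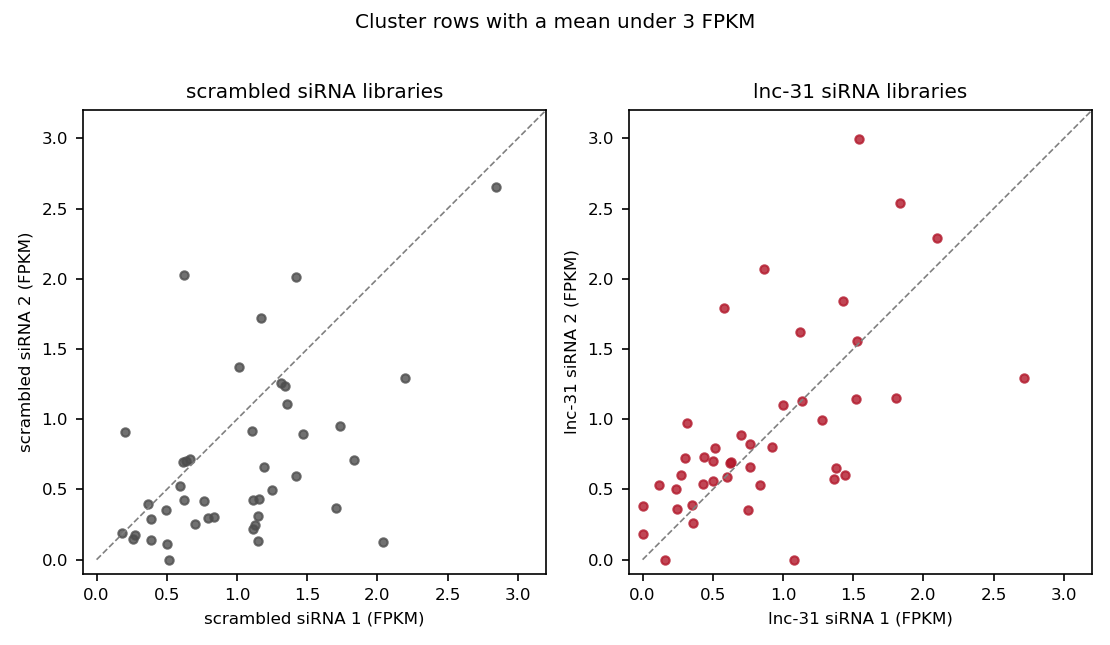
FPKM of the 43 cluster rows with a mean under 3 FPKM, with 1 library of a group on each axis and equal values on the dashed line. In scrambled siRNA 33 rows are higher in library 1, and in lnc-31 siRNA 16 are.

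Genes that make, process and handle histones were counted in lists. The list of histone message transcription and 3′ end processing had 22 tested genes, of which 2 fell and 20 did not pass, with a median of -0.03 on the log2 scale, beside 6.78% called lower and a median of -0.01 over all tested rows, so this share is near the background. Slbp, whose protein binds the stem-loop of cluster histone messages, fell from 72.4 ± 3.04 to 51.2 ± 1.87 FPKM (SD, n = 2 each; adjusted p = 0.0080), and Cstf2, a cleavage factor, from 23.1 ± 1.03 to 18.1 ± 0.281 FPKM (adjusted p = 0.018). Npat and Casp8ap2, which act at histone gene clusters, had log2 fold changes of -0.17 and -0.29 (adjusted p = 0.11 and 0.057).

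Of 34 tested genes in the list of histone chaperones and exchange, 10 fell and 24 did not pass (median -0.12). Beside this, 6.78% of all tested rows fell. Cenpa, itself a histone gene, was counted in this list among those that did not pass. Mis18a, which prepares centromeres for the H3 variant CENP-A, fell from 24.3 ± 0.927 to 14.4 ± 0.649 FPKM (adjusted p = 0.0056), while Cenpa itself stood at 97.3 ± 2.18 and 97.2 ± 1.20 FPKM (adjusted p = 1.0). Set, a histone-binding protein, fell from 304 ± 11.6 to 223 ± 9.91 FPKM, Chaf1b, a subunit of the replication-coupled chaperone CAF-1, from 33.9 ± 0.391 to 26.6 ± 0.165, and Hat1, which acetylates new H4, from 88.0 ± 0.404 to 71.2 ± 0.774.

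Of 24 S phase genes, 15 fell and 9 did not pass (median -0.24), with summed levels of 1625 to 1640 FPKM with scrambled siRNA and 1375 to 1438 FPKM with lnc-31 siRNA, again beside 6.78% of all tested rows that fell. The part of the S phase genes and of the myoblast markers in the histone values was not tested. In bulk RNA, fewer cells in S phase and less message per cell cannot be told apart.

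In the pull-down, of 596 peaks with lnc-31 probes and 476 with lacZ probes, 0 overlapped any of the 57 placed histone genes, and 0 lay within 2000 bases of one. Over all 49997 RefSeq genes 0.490% overlapped a peak of the lnc-31 probes and 0.468% one of the lacZ probes, so the 0 says nothing particular about histone genes.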

How the data were processed

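Expression in the 4 knockdown libraries was deposited by the authors as FPKM. For them the submitters' processing notes list the build mm10 and, with no order or version, Bowtie2, BWA, CASAVA, Cuffdiff, TopHat2 and Trimmomatic. The annotation and strand setting are not given in the sources used here. Peak lists were used for positions only, and the pull-down input was not analysed here. Every sample column matched a label.

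The 11500 rows averaging at least 1 FPKM were fitted as log2(FPKM + 1) with limma 3.58.1 in R 4.3.3 (trended prior variance, two-sided, Benjamini-Hochberg adjustment over all tested rows, called under 0.05). The fit was tested on simulated data in 2 ways, and in one of them the average share of false calls was above the nominal level, so adjusted p-values near the threshold may be too small. RefSeq positions are on GRCm38.p6, the assembly behind mm10, and genes were matched by current or older symbol, and 2 names were not placed, Hist1h2ap with more than 1 match and Hist1h2al, whose older symbol leads to a pseudogene entry. Peaks counted with an overlap of 1 base. Exact 0 values can be failed estimates. Python 3.11.15, pandas 2.3.3 and scipy 1.17.1 were used.

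Per-library values are given for called members and the 4 highest of each class, other members by range or where a family is described, and other genes as up to 4 per list by smallest p. The members and lists were chosen with earlier results of these data known. Npat, Casp8ap2 and Myod1 are among the 4 smallest p of their lists. Like Cenpa, Cdh15, Myf5 and the members named outside this rule, they were chosen after their values were seen. Alternatives were pseudocounts of 0.5 and 0.1, no filter, a mean of 5 FPKM or more, median of ratios scaling, quantile normalization, a constant prior variance, a replicate block, each library left out, and H2afx and H2afj moved between classes. Leaving out merged rows was added after seeing the data.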

Additional observations from a re-analysis of the deposited data

How the results depend on the processing

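The calls of H2afz, Hist1h1c and Hist1h2bc and their directions held under all 12 alternatives fitted, with log2 fold changes of -0.62 to -0.54, 0.53 to 0.66 and 0.55 to 0.70. With 1 library left out, where the lone library is assumed to vary like the other group, 260 to 491 rows were called instead of 1429, the cluster median ran from 0.068 to 0.20 and the replacement median from 0.0090 to 0.11. The merged row Hist2h2aa2,Hist2h3c1 went from 0.67 to 0.84 and 1.05 with pseudocounts of 0.5 and 0.1. The cluster median was 0.14 and 0.18 with pseudocounts of 0.5 and 0.1, and 0.60 with a mean of 5 FPKM or more, which left 3 cluster rows. H3f3a turned to -0.0072 when the first scrambled library was dropped and to -0.0069 when the second lnc-31 siRNA library was, and the cause was not tested. The labels do not say whether libraries of the same replicate number were paired. The correlation of their deviations from the group means was -0.094. With the replicate block 1613 rows and 6 histone rows were called, H1f0 (log2 fold change 0.20, adjusted p = 0.026) and Hist1h4d among them, and the medians did not move. Hist1h4d is listed at 0 in lnc-31 siRNA 2 and met the filter only through the scrambled siRNA libraries. Without merged rows 3 histone rows were called. Moving H2afx and H2afj changed neither class median beyond the spread between libraries. Read depth is unknown, so no limit from counting can be given for the low cluster rows.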
